A study of Mus musculus with 16 samples.

Results

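The 5 genes described here, *Trp63*, *Tfap2a*, *Tfap2c*, *Grhl2* and *Klf5*, encode transcription factors known for maintaining the identity of basal keratinocytes, the proliferating layer of the epidermis that rests on a basement membrane rich in laminin-332. They were taken by gene symbol from the deposited table, and all 5 were among its 14474 genes. RNA sequencing was done on immortalized mouse keratinocytes (MK cells) without the α3 integrin subunit (MKα3−) and on the same cells in which human α3 had been put back (MKα3+). Each line was given laminin-332 (LN332) at 0.02 mg/mL or an equal volume of the glycine-containing PBS vehicle for 16 to 24 h, which makes 4 groups of 4 libraries. All cells were grown on collagen-coated dishes in low-calcium MEM at 33 °C and 8% CO2, so the vehicle groups had a collagen substrate and whatever LN332 the cells made themselves. The sources do not say whether MKα3+ is a single clone or whether replicates were separate cultures, and p-values therefore measure the spread between these libraries, which may be technical.

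p63, encoded by *Trp63*, is the factor most often called the master regulator of stratified epithelium, and its ΔN forms activate the genes of basal keratins, desmosomes and hemidesmosomes. AP-2α and AP-2γ, encoded by *Tfap2a* and *Tfap2c*, bind GC-rich sites at many of the same epidermal genes. Grhl2 keeps epithelial junction genes such as that of E-cadherin active, and Klf5 is a zinc-finger factor of proliferating basal cells. Integrin α3β1 is a receptor for LN332, and the α3 comparisons below ask which of these genes differ with the receptor, while the LN332 comparisons ask which respond to added ligand.

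Total counts per library were between 21735708 and 29338370 (median 27036993). Mouse *Itga3* reads do not tell the lines apart, at 211 to 303 CPM (counts scaled to a common library total) in vehicle-treated MKα3− cells and 211 to 312 CPM in vehicle-treated MKα3+ cells, and the restored subunit is human. As to the label of the cells, 7 of 7 basal keratinocyte markers were in the table, and their summed level was between 7999 and 18050 CPM in every MKα3− library and between 8301 and 13530 CPM in every MKα3+ library. That sum is mostly *Krt5* and *Krt14*. Taken singly, 1 of the 7 basal markers was called lower in MKα3+ cells with vehicle (*Krt15*, log2 fold change -2.64, adjusted p = 0.0107) and 1 with LN332 (*Krt5*, -0.80, adjusted p = 0.0117, limma-voom), and the median of the 7 was -0.31 and -0.30. Markers of some other cell types also moved with the line, whereas the 5 tested fibroblast and 5 tested endothelial markers held no call with either treatment. The 4 simple-epithelium keratins summed to 1936 to 2461 CPM in vehicle-treated MKα3− and 4072 to 4478 CPM in vehicle-treated MKα3+ cells, and 3 of the 4 were called higher. Of 6 immune markers, 4 were in the table, 3 were called higher, and their sum was 39.0 to 68.5 CPM in the first group and 73.5 to 139 CPM in the second. Of 7 differentiation markers 3 were tested, 1 was called lower, and their sum was 42.2 to 76.3 CPM in the first group and 17.3 to 22.1 CPM in the second. With LN332, 3 of the 4 simple-epithelium keratins and 2 of the 4 immune markers were called higher in MKα3+ cells. All 3 tested differentiation markers were called lower there (median log2 fold change -1.16). Of all genes, 10.9% were called higher and 7.56% lower with vehicle, and 11.7% and 8.92% with LN332. The part of these cell-type markers in the α3 results below was not tested.

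The sequences below bear on what a count per gene can and cannot separate. *Trp63* lies on the plus strand of chromosome 16 (25683763 to 25892102, GRCm38, the same assembly as mm10), and its 8 annotated transcripts begin their coding sequence at 1 of 2 places. The upstream start makes the TA forms, which carry an N-terminal transactivation domain, and the downstream start makes the ΔN forms, which lack it. The first coding exon is given for each, with the start codon in capitals, and each is shared by 4 transcripts.
TA start, chr16:25684290-25684351, plus strand: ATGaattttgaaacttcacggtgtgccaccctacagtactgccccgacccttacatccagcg
ΔN start, chr16:25802060-25802101, plus strand: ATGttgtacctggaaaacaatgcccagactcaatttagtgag
These exons share no position, but reads from both starts were added into 1 count per gene, so every *Trp63* value here is a sum over TA and ΔN forms.

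The AP-2 genes are paralogues, and an alike pair of 60-base coding stretches is shown to let the separation of their reads be judged. It is the most alike ungapped pair within an exon, searched in the transcript with the longest coding sequence of each gene. Untranslated parts and stretches across exon borders were not searched for near-identity. *Tfap2a* is on chromosome 13 (40715302 to 40738376, minus strand) and *Tfap2c* on chromosome 2 (172549593 to 172558622, plus strand). Capitals mark the 10 positions that differ, and 50 of 60 bases (83.3%) are identical.
*Tfap2a*, exon 3, chr13:40723146-40723205, minus strand: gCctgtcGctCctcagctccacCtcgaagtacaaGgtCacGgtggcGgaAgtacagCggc
*Tfap2c*, exon 4, chr2:172553518-172553577, plus strand: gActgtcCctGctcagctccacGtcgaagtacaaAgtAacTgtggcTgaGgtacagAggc
No stretch of 30, 50 or 100 bases was identical between any annotated transcripts of the pair (0 shared on either strand). The other loci were *Grhl2* on chromosome 15 (37233036 to 37363569, plus strand) and *Klf5* on chromosome 14 (99298691 to 99315036, plus strand). Exons of *Tfap2a* overlap 3 annotated antisense genes and those of *Grhl2* overlap 1. The largest single overlap of exons was 73 to 269 bases per antisense gene, and the total was not taken. As the sources name no strand setting for the counting, a share of these counts, of a size not measured, could belong to the antisense genes.

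Per length, *Klf5* and *Tfap2a* were the steadily high members, *Grhl2* was intermediate, *Tfap2c* was far below the others, and the rank of *Trp63* differed between groups. These levels are RPKM, that is CPM divided by the kilobases of all annotated exons of the gene. The lengths are of GENCODE M21, whereas the counts were made on Entrez gene models, and the rank depends on the length used. In vehicle-treated MKα3− cells *Tfap2a* and *Grhl2* had like CPM (71.4 and 71.0), on 4903 and 8613 bases of exons. In vehicle-treated MKα3− cells *Klf5* was at 17.2 ± 1.64 RPKM, *Trp63* at 14.6 ± 3.69, *Tfap2a* at 14.55 ± 1.30, *Grhl2* at 8.24 ± 0.553 and *Tfap2c* at 0.791 ± 0.333 (SD, n = 4). The ranges of the first 3 overlapped, whereas *Grhl2* and *Tfap2c* each stood apart from their neighbours. In LN332-treated MKα3+ cells *Trp63* was at 6.36 RPKM (3.62 to 7.41), below every *Grhl2* value there (8.30 to 9.17), and *Tfap2c* was at 0.0618 ± 0.0343. In the other two groups the ranges of *Trp63* and *Grhl2* overlapped.

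**Figure D1:**
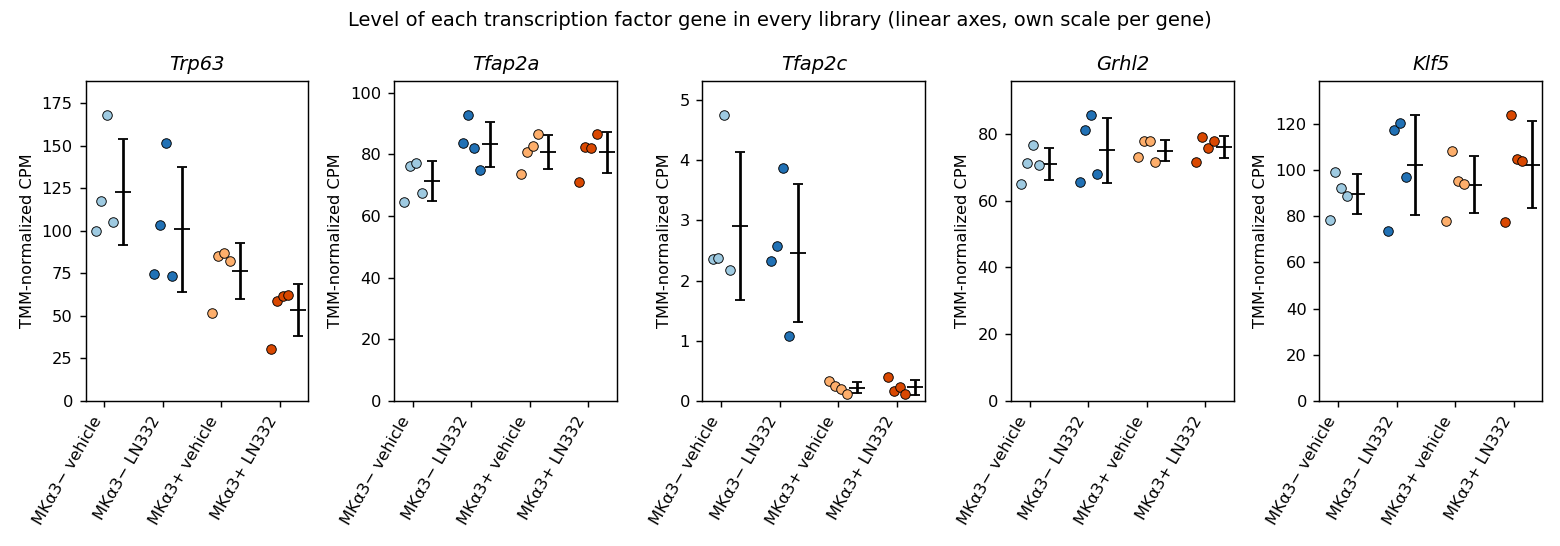
TMM-normalized CPM (y axis, linear from 0, with its own scale for each gene) of the 5 genes in the 16 libraries; points are libraries and bars are mean ± SD of 4. *Trp63* and *Tfap2c* are lower in MKα3+ than in MKα3− libraries under both treatments with no overlap, whereas *Tfap2a*, *Grhl2* and *Klf5* overlap between the lines. The share of all genes without overlap between the lines is not given here.

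*Trp63* mRNA was lower in MKα3+ cells than in MKα3− cells under both treatments, and the difference was past the threshold in LN332-treated cells. Levels between libraries are CPM after TMM scaling, which corrects each library's total for differences in composition. With vehicle, *Trp63* was at 100.1, 118, 168 and 106 CPM in MKα3− replicates 1 to 4 and at 51.8, 85.1, 87.0 and 82.4 CPM in MKα3+ replicates 1 to 4. Every MKα3+ library was below every MKα3− library, but the share of all genes separated in this way is not given here. In this comparison 39% of all genes had an unadjusted p under 0.05 in limma-voom. The *Trp63* means were 123 ± 31.0 and 76.6 ± 16.6 CPM (SD, n = 4). The log2 fold change was -0.68 (SE 0.26, 95% interval -1.23 to -0.14), and it missed the threshold of an adjusted p-value under 0.05 with an absolute log2 fold change over 0.5 (adjusted p = 0.0583 in limma-voom). With LN332, *Trp63* was at 74.8, 104, 152 and 73.5 CPM without α3 and at 30.4, 58.9, 61.9 and 62.1 CPM in MKα3+ cells. These groups did not overlap either, with means of 101 ± 36.6 and 53.4 ± 15.4 CPM, and here the gene was called lower, at a log2 fold change of -0.91 (SE 0.26, 95% interval -1.46 to -0.36, adjusted p = 0.0128 in limma-voom). A minimum log2 fold change of 1 would end that call. In RNA from whole cultures, fewer cells with *Trp63* mRNA and less of it per cell cannot be told apart.

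The vehicle result sat at the edge of the threshold. Its adjusted p was 0.0574 in edgeR and 0.0265 in DESeq2, and it ran from 0.0018 to 0.18 over all alternatives, so the call itself depends on the model. Within both lines the spread of *Trp63* was carried by a few libraries. Replicate 3 was the highest library of both MKα3− groups and replicate 1 the lowest of both MKα3+ groups. Without MKα3− vehicle replicate 3 the vehicle log2 fold change was -0.52 (adjusted p = 0.18), and without MKα3+ vehicle replicate 1 it was -0.50 (adjusted p = 0.167, both limma-voom). In LN332 the gene was called whichever library was left out, from -1.05 to -0.66 on the log2 scale.

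*Tfap2c*, encoding AP-2γ, showed the largest difference among the 5 genes. With vehicle it had 67, 70, 134 and 63 reads in MKα3− replicates 1 to 4, or 2.35, 2.37, 4.75 and 2.18 CPM, and only 9, 6, 5 and 3 reads in MKα3+ replicates, or 0.327, 0.241, 0.196 and 0.108 CPM. The gene was scarce in the first line and close to the limit of detection in the second, since 3 reads correspond to 0.102 to 0.147 CPM in these libraries. The log2 fold change was -3.64 (SE 0.56, 95% interval -4.82 to -2.46, adjusted p = 0.000103 in limma-voom), a 12.5-fold lower level. With LN332 the MKα3− replicates had 60, 73, 108 and 22 reads (2.33, 2.58, 3.88 and 1.08 CPM) and the MKα3+ replicates 10, 4, 6 and 3 reads (0.402, 0.162, 0.233 and 0.112 CPM). The 2 lines again did not overlap, with no share of all genes beside it here. The log2 fold change was -3.39 (SE 0.58, 95% interval -4.61 to -2.18, adjusted p = 0.000242 in limma-voom), a 10.5-fold lower level. *Tfap2c* passed the filter on low values only through its MKα3− libraries. A minimum of 10 reads in every library removes the gene, and then it has no test.

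Among the 5 genes, 1 was called lower with vehicle and 2 were called lower with LN332, against 7.56% and 8.92% of all 14474 genes called lower in these comparisons. Genes called higher made up 10.9% and 11.7% of the table, and the 5 genes held no such call (limma-voom; edgeR and DESeq2 gave no higher call among them either). At an unadjusted p under 0.05, 2 of the 5 passed in each α3 comparison, *Trp63* and *Tfap2c*, and so did 39% of all genes with vehicle and 42.5% with LN332, so this count is close to the background. The share of all genes whose libraries did not overlap between the lines is not given here. The lack of overlap for *Trp63* and *Tfap2c* therefore has no such background beside it.

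**Figure D2:**
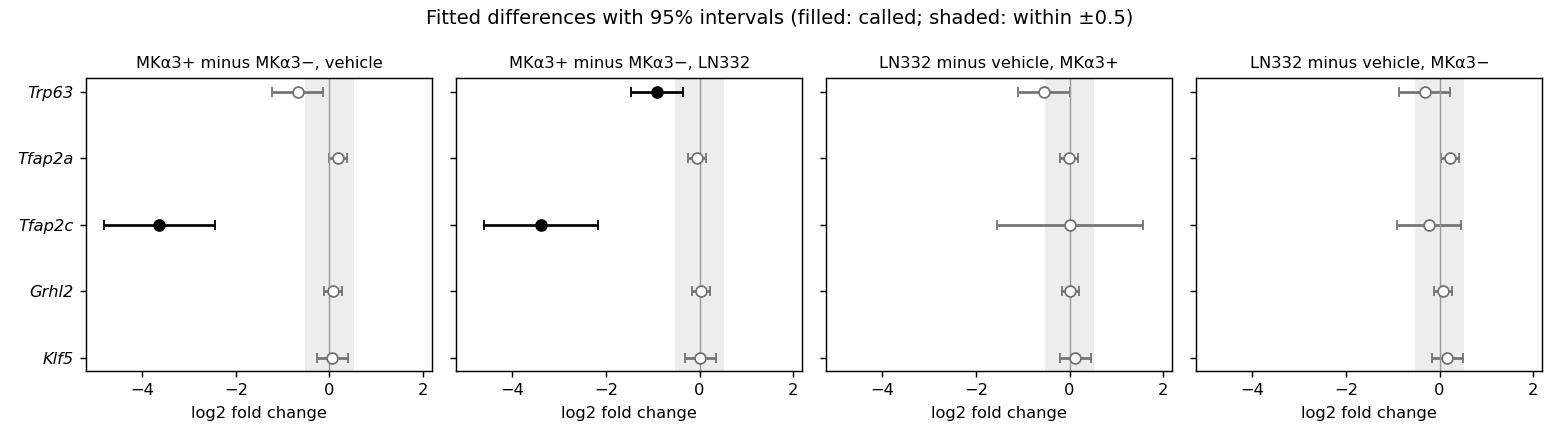
Log2 fold changes of the 5 genes (points) with 95% intervals (bars) in the α3 comparisons and the LN332 comparisons; filled points passed the threshold and the shaded band spans ±0.5. The filled points are *Tfap2c* in both α3 comparisons and *Trp63* with LN332, and no point is filled for the LN332 responses.

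The balance of the AP-2 paralogues within a library does not depend on how libraries are scaled to each other, and is given as another view of the *Tfap2c* difference, not as separate evidence. In vehicle-treated MKα3− libraries there were 27.4, 32.1, 16.3 and 31.1 *Tfap2a* reads for each *Tfap2c* read, and in vehicle-treated MKα3+ libraries 224, 335, 422 and 802. The groups were far apart. The log2 ratio was 4.69 ± 0.455 in MKα3− and 8.64 ± 0.769 in MKα3+ cells (SD, n = 4), a difference of 3.95 or 15.5-fold. With LN332 it was 5.21 ± 0.704 and 8.63 ± 0.899, a difference of 3.41 or 10.6-fold. The MKα3+ ratios rest on 3 to 10 *Tfap2c* reads per library.

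*Tfap2a*, *Grhl2* and *Klf5* were not called in either α3 comparison, and their intervals were narrow. *Tfap2a* was at 64.4, 76.3, 77.2 and 67.6 CPM in MKα3− and at 73.5, 80.6, 82.7 and 86.5 CPM in MKα3+ cells with vehicle. The ranges overlapped, and the log2 fold change of 0.18 had a 95% interval of -0.01 to 0.38 (adjusted p = 0.153 in limma-voom). With LN332 the difference was -0.05 (-0.24 to 0.15, adjusted p = 0.729), on means of 83.3 ± 7.30 and 80.6 ± 6.61 CPM. *Grhl2* gave the same picture. Its vehicle values were 65.1, 71.2, 76.8 and 70.7 CPM in MKα3− and 73.0, 77.9, 77.8 and 71.5 CPM in MKα3+ cells, a log2 difference of 0.08 (-0.11 to 0.27, adjusted p = 0.538), and with LN332 the difference was 0.03 (-0.16 to 0.21, adjusted p = 0.856). *Klf5* was at 78.5, 99.0, 92.1 and 88.7 CPM in MKα3− and at 77.8, 108, 95.1 and 94.0 CPM in MKα3+ cells with vehicle. Its log2 difference was 0.06 (-0.27 to 0.39, adjusted p = 0.813), and with LN332 it was 0.01 (-0.32 to 0.34, adjusted p = 0.964). For all 3 genes, differences beyond 0.5 on the log2 scale lie outside these intervals.

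None of the 5 genes was called in response to LN332 in limma-voom, edgeR or DESeq2. At an unadjusted p under 0.05 in limma-voom there were 0 in MKα3+ cells, 1 in MKα3− cells and 1 for the average. The shares of all genes at this rule were 9.59%, 14% and 19.8%, so these counts are close to the background. Calls at the adjusted threshold were fewer. In MKα3+ cells 0.187% of all genes were called (27 genes, or 218 once the replicate number was blocked on), in MKα3− cells 0.304% (44 genes), and for the average of both responses 1.35% (196 genes). *Trp63* came nearest. In MKα3+ cells its mean was 76.6 CPM with vehicle and 53.4 CPM with LN332, and the fitted log2 fold change was -0.55 (SE 0.26, 95% interval -1.10 to 0.003, unadjusted p = 0.0511, adjusted p = 0.524 in limma-voom), and it was lower in 4 of 4 pairs of libraries with the same replicate number. With the replicate number blocked on, this difference was -0.54 (SE 0.15, 95% interval -0.86 to -0.22, adjusted p = 0.0612 in limma-voom). That interval lies below 0, and the adjusted p just missed the threshold. Without MKα3+ LN332 replicate 1 the unblocked difference was -0.30, and with sample quality weights it was called (-0.50, adjusted p = 0.0435 in limma-voom). In MKα3− cells the means were 123 and 101 CPM, which gave a log2 fold change of -0.32 (SE 0.26, -0.86 to 0.23, adjusted p = 0.634), also lower in 4 of 4 same-numbered pairs. The ranges with and without LN332 overlapped in both lines. The average of the 2 responses was -0.43 (SE 0.18, -0.82 to -0.05, unadjusted p = 0.0305, adjusted p = 0.198).

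**Figure D3:**
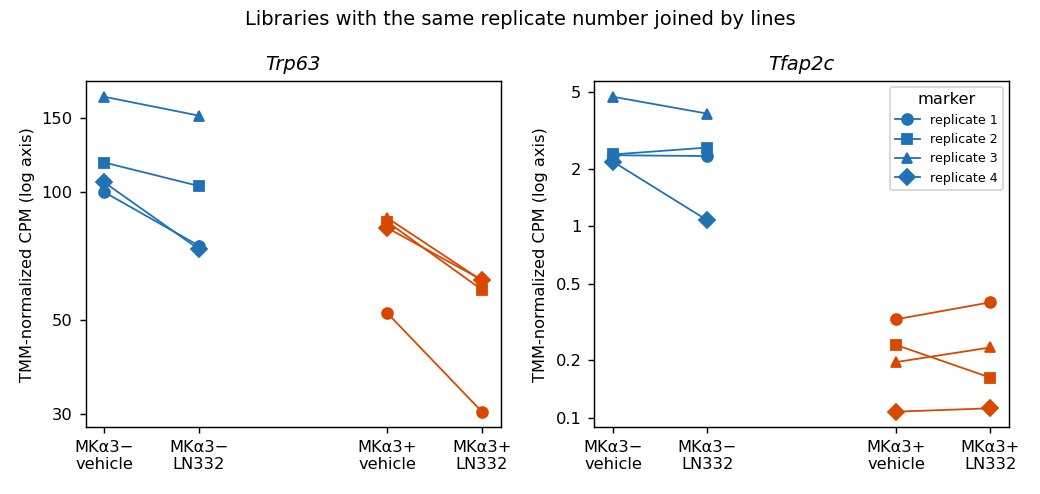
TMM-normalized CPM (log axis) of *Trp63* and *Tfap2c* with vehicle and with LN332 in each line; lines join libraries with the same replicate number. *Trp63* is lower with LN332 in 4 of 4 joined libraries in each line, and replicate 1 of MKα3+ lies below the other 3 with either treatment, at 51.8 and 30.4 CPM.

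*Tfap2a* had the other unadjusted p under 0.05. With LN332 the MKα3− libraries were at 83.6, 92.6, 81.9 and 74.9 CPM, higher than the vehicle library of the same number in 4 of 4 cases, and the log2 fold change was 0.22 (SE 0.09, 95% interval 0.03 to 0.42, unadjusted p = 0.0261, adjusted p = 0.294 in limma-voom). In MKα3+ cells the corresponding value was -0.01 (-0.20 to 0.19, adjusted p = 0.995), with 71.1, 82.4, 82.2 and 86.6 CPM after LN332. *Grhl2* was at 65.5, 81.2, 85.6 and 68.0 CPM in LN332-treated MKα3− and at 71.5, 79.0, 75.7 and 78.0 CPM in LN332-treated MKα3+ cells. Its responses were 0.08 (-0.11 to 0.26) and 0.02 (-0.17 to 0.21). *Klf5* was at 73.5, 118, 120.3 and 96.9 CPM and at 77.4, 124, 105 and 104 CPM in the same groups, with responses of 0.17 (-0.17 to 0.50) and 0.12 (-0.21 to 0.45). *Tfap2c* gave -0.23 (-0.92 to 0.45) in MKα3− cells. In MKα3+ cells its response had an interval of -1.54 to 1.57, and a change of less than that size was not detectable with 3 to 10 reads per library.

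The difference between the lines in the LN332 response was tested as an interaction. It was called for 0 of the 5 genes and for 0% of all genes in limma-voom, edgeR and DESeq2, with 164 genes, none of them among the 5, at an unadjusted p under 0.05. For *Trp63* the MKα3+ response minus the MKα3− response was -0.23 (SE 0.37, 95% interval -1.003 to 0.54), and for *Tfap2a* it was -0.23 (SE 0.13, -0.50 to 0.04). The interval of *Trp63* spans both signs and differences over 0.5.

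Across the 16 libraries, the genes whose log2 CPM ran most closely with each member differed from member to member. For *Trp63* they were *Fat2*, encoding an atypical cadherin of epithelial cells (Pearson r = 0.949), *Plch2* (0.947) and *Baz2a* (0.944). For *Tfap2c* they were *Ces2e* (0.991), *Thbs2*, which encodes thrombospondin 2 (0.983), and *Dsc3*, which encodes the basal desmosomal cadherin desmocollin 3 (0.981). These coefficients contain the difference between the lines, and the vehicle log2 fold changes of *Fat2* and *Dsc3* were -2.22 and -7.81. The genes nearest to *Tfap2a* were *Senp6* (0.854), *Ythdf3* (0.834) and *Iws1* (0.833), those nearest to *Grhl2* were *B3gnt2* (0.882), *Myof* (0.868) and *Mid2* (0.860), and those nearest to *Klf5* were *Fmr1* (0.892), *Cand1* (0.889) and *Fads1* (0.887). All are descriptions over 16 libraries that fall into 4 groups. Between members, *Trp63* was at r = 0.227 with *Grhl2*, 0.307 with *Klf5*, 0.068 with *Tfap2a* and 0.673 with *Tfap2c* over the 16 libraries. After the group means were taken out, the same values were 0.793, 0.789, 0.707 and 0.103. *Grhl2* and *Klf5* were at 0.799 before and 0.798 after. Replicate 1 was the lowest library for *Klf5* in every group. It was also the lowest for *Trp63* and *Tfap2a* in every group but LN332-treated MKα3− cells.

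Of 20 paralogues in the p53, AP-2, Grainyhead-like and Krüppel-like families, 16 were tested. The other 4, among them the AP-2 genes *Tfap2b*, *Tfap2d* and *Tfap2e*, were not analysed here. With vehicle 1 paralogue was higher and 1 lower in MKα3+ cells, beside 10.9% and 7.56% of all genes, at a median log2 fold change of -0.15 against 0.01 for all genes. With LN332 1 was higher and 2 were lower, beside 11.7% and 8.92% (median -0.21). *Grhl3*, a Grainyhead-like factor of differentiating keratinocytes, was lower, from 28.5 ± 4.21 to 18.6 ± 4.24 CPM (log2 fold change -0.64, SE 0.20, adjusted p = 0.0252 in limma-voom). *Klf8* was the higher gene (3.97, SE 0.48, adjusted p = 7.33e-06), on 0.466 ± 0.254 CPM in MKα3− cells, and lay below the expression minimum for naming genes, so it is named after its values were seen. Of 25 other transcription factors of epidermis, 20 were tested, and with vehicle 1 was higher and 4 were lower in MKα3+ cells (median -0.17), and with LN332 1 was higher and 6 were lower (median -0.24). *Foxn1*, which drives hair and keratinocyte differentiation, was higher (54.5 ± 8.81 to 95.1 ± 8.37 CPM, log2 fold change 0.81, SE 0.14, adjusted p = 0.000317). *Cebpa*, a differentiation factor, was lower (18.6 ± 6.96 to 4.70 ± 1.04 CPM, -1.93, SE 0.32, adjusted p = 0.000192), and so was the epithelial ETS factor *Elf3* (-0.77, SE 0.22, adjusted p = 0.0125, all limma-voom).

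Known targets of the 5 factors were then counted. The lists draw on general knowledge of the factors but were chosen with earlier results of these data known. Their counts and medians are therefore descriptions and no independent test. Of 23 tested genes that p63 is known to activate, 6 were lower in MKα3+ cells with vehicle and the other 17 were not called, at a median log2 fold change of -0.38 against 0.01 for all genes and beside the 7.56% of all genes called lower. The receptors *Fgfr2* (16.2 ± 5.85 to 3.83 ± 0.391 CPM, log2 fold change -1.99, SE 0.43, adjusted p = 0.00196) and *Fgfr3* (7.78 ± 2.07 to 4.11 ± 0.650 CPM, -0.90, SE 0.24, adjusted p = 0.00867, limma-voom) had the lowest log2 fold changes among them. The other 4, named after their values were seen, were *Perp*, a desmosomal tetraspan protein (-0.70), *Dst*, the hemidesmosomal plakin BPAG1 (-0.63), *Dlx3* (-0.68) and *Cldn1* (-0.53). With LN332, where *Trp63* itself was called, 3 of the 23 were lower and 2 higher (median -0.30), beside 8.92% and 11.7% of all genes. The lower genes were the basal keratin gene *Krt5* (-0.80, adjusted p = 0.0117), *Perp* (-0.78) and *Fgfr2* (-2.22), and the higher ones were *Fermt1* (0.56) and *Ripk4* (0.51), again named after their values were seen except *Fgfr2*. Of 6 genes that p63 is known to repress, 2 were higher with vehicle, the simple-epithelium keratin gene *Krt8* (552 ± 42.2 to 1292 ± 112 CPM, log2 fold change 1.23, SE 0.11, adjusted p = 1.9e-07) and *Igfbp3* (0.68, SE 0.23, adjusted p = 0.0355), and the median was 0.16. Of all genes, 10.9% were called higher there. With LN332 the same 2 were higher between the lines, beside 11.7% of all genes, but the median of the 6 was -0.0004. *Krt8* also belongs to the simple-epithelium markers that moved with the line.

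The same shares of all genes, 10.9% higher and 7.56% lower with vehicle and 11.7% and 8.92% with LN332, apply to the targets of the other factors. Of 8 AP-2 targets, *Cebpa* was lower with vehicle and 7 were not called (median -0.24). With LN332 *Cebpa* and *Krt5* were lower, the E-cadherin gene *Cdh1* was higher (0.82, SE 0.18, adjusted p = 0.00166 in limma-voom), and the median was 0.03. Of 10 Grhl2 targets, 2 were higher with vehicle (median 0.18) and 3 with LN332 (median 0.21), where *Grhl2* itself was not called. *Cldn3*, a tight-junction claudin gene, went from 6.05 ± 2.44 to 90.0 ± 7.53 CPM (log2 fold change 3.98, SE 0.24, adjusted p = 2.35e-09), and *Prom2*, the gene of the membrane protein prominin 2, from 17.2 ± 3.34 to 34.0 ± 1.99 CPM (0.9997, SE 0.15, adjusted p = 9.1e-05). Of 8 Klf5 targets, the FGF carrier gene *Fgfbp1* (-0.74, SE 0.17, adjusted p = 0.00331) and the cyclin gene *Ccnb1* (-0.59, SE 0.15, adjusted p = 0.00767) were lower and 6 were not called (median -0.23), and with LN332 2 were lower (median -0.16). Among 10 genes whose products act on these factors, 2 were higher and 1 was lower with vehicle, and 2 were higher and 2 lower with LN332. *Itch*, a ubiquitin ligase that marks p63 for degradation, went from 53.9 ± 5.39 to 84.7 ± 6.37 CPM (log2 fold change 0.65, SE 0.11, adjusted p = 0.000153), *Cited2*, an AP-2 coactivator, from 54.1 ± 9.87 to 129 ± 18.3 CPM (1.26, SE 0.18, adjusted p = 4.86e-05), and *Mdm2*, the ubiquitin ligase of p53, from 464 ± 171 to 269 ± 23.8 CPM (-0.72, SE 0.21, adjusted p = 0.0176, all limma-voom). No value here measures protein, so whether p63 or AP-2 protein differed was not tested.

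**Figure D4:**
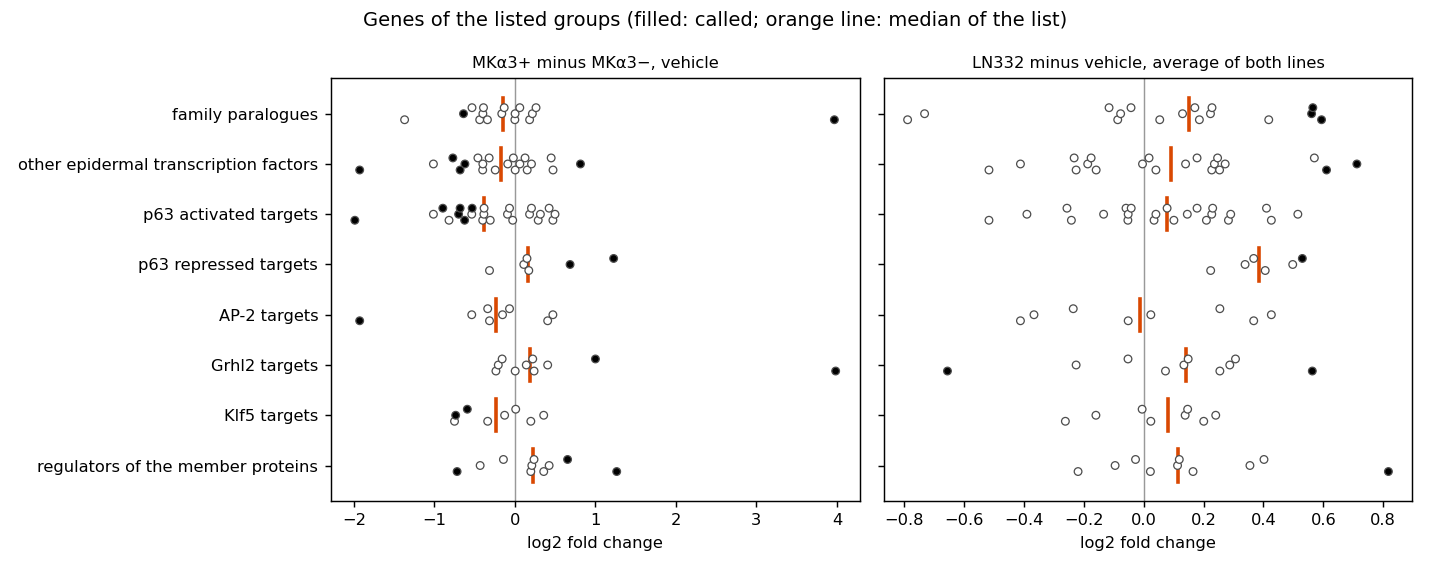
Log2 fold changes (x axis) of the genes in each list for MKα3+ minus MKα3− with vehicle (left) and for LN332 minus vehicle averaged over both lines (right); each point is a gene, filled points passed the threshold and orange lines are list medians. The 6 filled p63-activated targets on the left all lie below 0, and *Cldn3* and *Klf8* lie near 4.

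The 8 lists together name 99 genes besides the members, of which 90 were tested, and LN332 calls among them lay mostly above 0. As the lists were chosen with earlier results of these data known, the shares set beside them describe and do not test. For the average of both lines 8 were higher and 1 was lower (limma-voom), beside 1.35% of all genes called. The median was 0.14 for the 90 and -0.005 for all genes. Over all genes the LN332 calls also lay mostly above 0. They were 133 higher and 63 lower for the average, 35 and 9 in MKα3− cells, and 25 and 2 in MKα3+ cells. The higher genes included *Sox9* (log2 fold change 0.71, SE 0.11, adjusted p = 0.00212), *Ovol1* (0.61, SE 0.12, adjusted p = 0.00943), *Grhl3* (0.59, SE 0.14, adjusted p = 0.0234), *Klf6* (0.56, adjusted p = 0.00302) and *Klf7* (0.56, adjusted p = 0.0252). *Cited2* rose by 0.82 (SE 0.13, adjusted p = 0.00265), the p53 and p63 target *Sfn* by 0.53 (adjusted p = 0.00952) and *Cldn4* by 0.56 (adjusted p = 0.00726), and *Prom2* fell by 0.66 (adjusted p = 0.00529). In MKα3− cells limma-voom called 5 of the 90 and edgeR 5, beside 0.304% and 0.325% of all genes. DESeq2 called 8 there (1.14% of all genes), and with the replicate block 10 were higher and 2 lower (1.79% of all genes). The 5 in limma-voom were higher, namely *Klf6* (0.66), *Sox9* (0.87), *Sfn* (0.77), *Krt8* (0.55) and *Cited2* (1.002). In MKα3+ cells limma-voom and edgeR called 0 of the 90, beside 0.187% and 0.0276% of all genes. DESeq2 called 5 (0.85% of all genes), and 20 had an unadjusted p under 0.05 in limma-voom (9.59% of all genes). Once the replicate number was blocked on, 6 were called there (1.51% of all genes), with *Sox9*, *Ovol1*, *Gata3*, *Cldn4* and *Cited2* higher and *Prom2* lower. The paralogues *Grhl3*, *Klf6* and *Klf7* rose on average over the lines, whereas *Grhl2* (0.05, 95% interval -0.09 to 0.18) and *Klf5* (0.14, -0.09 to 0.38) were not called, and the difference between paralogues was not tested.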

How the data were processed

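RNA from MKα3− and MKα3+ cells with vehicle or LN332 (4 libraries per group) was poly(A)-selected and sequenced. The authors aligned reads to mm10 (Rsubread), assigned them to genes with featureCounts and its Entrez gene models, and deposited the raw counts, not normalized. The strand setting is not given in the sources used here. The deposited counts held no gene below the methods' filter (over 0.5 CPM in 3 or more libraries), and it removed 0 genes.

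TMM factors (edgeR 4.0.16) and voom weights, contrasts and empirical Bayes statistics (limma 3.58.1, R 4.3.3) were computed in a single fit of 16 libraries, 1 coefficient per group. Adjusted p-values are Benjamini-Hochberg over 14474 genes and come from limma-voom unless another tool is named; a gene was called at an adjusted p under 0.05 with an absolute log2 fold change over 0.5. Totals of 21735708 to 29338370 counts put 3 reads at 0.102 to 0.147 CPM. RPKM used union exon lengths of GENCODE M21 (GRCm38), which also gave positions and sequences. Likeness was Pearson's r of log2 CPM (prior count 2).

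Named were the members, the up to 2 highest and 2 lowest called genes per list with vehicle (mean log2 CPM of at least 1), every listed gene called with LN332, and the 3 genes most like each member. Members and lists were chosen with earlier results of these data known. On simulated data with 200 genes changed by a log2 fold change of 1, 72% were recovered in the vehicle α3 comparison (14457 genes) and 77% in the MKα3+ LN332 comparison (14456 genes). False calls numbered 3 and 8. Simulated counts were independent between libraries, without the correlation of same-numbered libraries. The changed genes were of all levels, so these shares do not apply to a gene as scarce as *Tfap2c*.

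Replicate numbers were read from the sample titles. Deviations of same-numbered vehicle and LN332 libraries correlated in MKα3+ cells for every number (r = 0.62, 0.474, 0.202 and 0.58), so the numbers were taken to pair these groups. In the other comparisons at least 1 pair was under 0.1. Alternatives were the quasi-likelihood test of edgeR, DESeq2 1.42.0, its size factors, library size alone, the replicate block, no filter, a minimum of 10 counts throughout (12795 genes), quality weights per sample, fits of the compared groups alone, other minimum fold changes, and each library left out.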

Additional observations from a re-analysis of the deposited data

Results flagged for a closer look

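In each group of 4 libraries the highest and lowest value of each gene were compared with the rest, and in 3 of the 20 groups tested 1 library stood apart from the other 3, where chance alone gives about 1 in 20. *Trp63* was at 51.8 CPM in MKα3+ vehicle replicate 1 against 82.4 to 87.0 CPM in the other libraries of that group. *Trp63* was at 30.4 CPM in MKα3+ LN332 replicate 1 against 58.9 to 62.1 CPM. *Tfap2c* was at 4.75 CPM in MKα3− vehicle replicate 3 against 2.18 to 2.37 CPM.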

How the results depend on the processing

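With vehicle, the count of members called between the lines was 1. It became 2, with *Trp63* added, in DESeq2, with library size alone, with the replicate block, with sample quality weights and with only the groups compared, and 0 with at least 10 counts in every library, which removes *Tfap2c*. Leaving out 1 library gave 1 to 2, with 2 when MKα3− LN332 replicate 3 or MKα3+ LN332 replicate 1 was left out. With LN332 the count of 2 became 1 with at least 10 counts in every library and 1 with a minimum log2 fold change of 1. The LN332 count of 0 in MKα3+ cells became 1 with quality weights (*Trp63*, log2 fold change -0.50, adjusted p = 0.0435). With the replicate block *Trp63* was at -0.68 (adjusted p = 0.0018) between the lines with vehicle, where same-numbered libraries correlated at only 0.0913 to 0.267 and replicate 4 did not correlate best with its own number, and for the average LN332 response at -0.43 (adjusted p = 0.014), under the minimum fold change; the block changed no other call of a member. Over all genes, LN332 calls in MKα3+ cells numbered 27 in limma-voom, 4 in edgeR, 123 in DESeq2 and 218 with the block, those in MKα3− cells 44, 47, 165 and 259, and those for the average 196, 197, 272 and 363. Between the lines the block changed the p63-activated targets called lower from 6 to 9 with vehicle and from 3 to 6 with LN332, and the basal markers called lower from 1 to 3 with either treatment. With the block the AP-2 log2 ratio differences stay at 3.95 and 3.41 by arithmetic, as every group holds the same 4 replicate numbers. Exact sign flips over 4 pairs cannot give a p under 0.125, so this alternative does not test them. All other changes were of sign in values near 0 that were not called. With library size alone *Klf5* between the lines with LN332 was -0.00308, *Tfap2c* and *Grhl2* in the MKα3+ response -0.066 and -0.058, and *Grhl2* in the MKα3− and average responses -0.00023 and -0.029. With quality weights *Klf5* and *Grhl2* between the lines with LN332 were -0.043 and -0.037, and with only the groups compared *Klf5* was -0.0015. Leaving out 1 library gave *Klf5* -0.011 to 0.15 between the lines with vehicle, and with LN332 *Tfap2a* -0.10 to 0.0092, *Grhl2* -0.039 to 0.083 and *Klf5* -0.14 to 0.14. It gave *Tfap2a* -0.051 to 0.054, *Tfap2c* -0.28 to 0.28 and *Grhl2* -0.0029 to 0.050 in the MKα3+ response, *Tfap2c* -0.50 to 0.058 in the MKα3− response and -0.26 to 0.035 on average, and *Trp63* -0.41 to 0.025, *Tfap2c* -0.050 to 0.51, *Grhl2* -0.11 to 0.0070 and *Klf5* -0.19 to 0.083 in the interaction. The cause of these changes was not tested. A fit of only the groups compared was not run for the average and the interaction. Depth limits *Tfap2c* in MKα3+ cells (3 to 10 reads per library).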
